A study of Homo sapiens with 8 samples.

Results

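The desmosomal plaque and plakin genes are 9 genes chosen by name: DSP, JUP, PKP1, PKP2, PKP3, PKP4, PERP, PPL and EVPL. Each matched 1 of the 58735 genes listed in the deposited counts, and all 9 were among the 15135 genes with enough reads to be tested. They were read in 8 RNA-seq libraries of EPC2-hTERT, a telomerase-immortalised line of human esophageal epithelial cells. CTRL comprised 4 libraries with the genotype label Control. The 4 miR-155OE libraries came from cells made to overexpress miR-155-5p stably by lentiviral delivery. The gene counts do not measure the mature microRNA, so the group labels were not checked on it. Both groups were grown as 3D air-liquid interface cultures on porous inserts, for 2 days in a keratinocyte medium and 5 days with 1.8 mM calcium before exposure to air. The labels do not say whether the overexpressing line is 1 clone or which vector the controls carry. They number the libraries 1 to 4 in each group without calling them separate cultures. The p-values therefore rest on the spread among these libraries alone, and that spread may be technical.

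Desmosomes are the junctions that tie the keratin filaments of neighbouring epithelial cells together. Desmosomal cadherins cross the membrane, the armadillo proteins plakoglobin and the plakophilins bind the cadherin tails in the plaque, and desmoplakin links that plaque to keratin. Periplakin and envoplakin are plakins that join desmosomes to the cornified envelope of the upper squamous layers, and calcium drives the assembly of the whole structure in keratinocytes.

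The microRNA that distinguished the groups is shown first, from RefSeq on GRCh38.p14, with bases 2 to 8, the seed that pairs with target RNAs, in capitals. It lies at chr21:25573983-25574006 on the plus strand.
hsa-miR-155-5p: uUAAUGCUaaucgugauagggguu
For every member the longest 3′ UTR in GENCODE 29 (GRCh38) was read. Only the strand of the transcript was searched, for AGCATTA, for AGCATTA followed by A, and for its last 6 bases followed by A, a place that fitted more than 1 of them counting once. PERP, PKP2 and PKP4 held 1 match each, and none was found in DSP (839 bases of UTR), JUP (1140.0), PKP1 (2952), PKP3 (339), PPL (877) or EVPL (258). Of the 12510 tested genes with an annotated 3′ UTR, 17.6% held at least 1. The 3 matches are printed 5′ to 3′ with the matching bases in capitals.
PERP, chr6:138091189-138091195, minus strand: ttgtgtagtaaAGCATTAggagggtcatt
PKP2, chr12:32790784-32790790, minus strand: tgttttttaagGCATTAAtaaagccttcg
PKP4, chr2:158681922-158681928, plus strand: tagcaccacacAGCATTActtgggagctt
A match is a description of the sequence and not a measured site. PKP2 and PKP4 stood lower and PERP stood higher in miR-155OE in 4 of 4 same-numbered pairs. Among the members with no match, PPL and EVPL also stood lower and PKP1 and PKP3 higher in 4 of 4 pairs. Of all tested genes, 35.6% kept 1 direction in 4 of 4 pairs. None of the 3 genes with a match passed the test on group alone given below, and whether a match bears on their level was not tested.

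No plaque or plakin gene passed the test between miR-155OE and CTRL, the comparison through which the study examined the role of miR-155-5p in the epithelial barrier. By edgeR's quasi-likelihood test on group alone, with Benjamini-Hochberg adjustment over all tested genes at a false discovery rate of 0.05, 0 of 9 passed, against 3.22% of all tested genes. At an unadjusted p under 0.05 there were 4 of 9 (PKP2, PPL, PKP4 and PKP3), against 19.3% of tested genes. DESeq2 and limma-voom also called 0 of 9, against 7.04% and 3.32% of the genes each tested. Fold changes were small: 5 members had a positive and 4 a negative log2 fold change, from −0.36 for PKP2 to 0.30 for PKP3. The median of the 9 was 0.04, beside −0.01 over all tested genes. Their median absolute value was 0.21, beside 0.14 over all tested genes and 0.10 over the 8395 with a mean of at least 10 CPM (read counts per 1 M reads of the library, TMM-scaled). CPM of the 2 groups did not overlap in 3 of 9 members (PPL, PKP4 and PERP), against 11.4% of tested genes. The direction was the same in 4 of 4 same-numbered pairs in 7 of 9, against 35.6% of tested genes.

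With the replicate number as a block, 1 of 9 members passed, PPL, which fell, against 12.6% of tested genes. Without pair 1, 3 or 4 no member was called in the blocked fit, against 4.07%, 9.14% and 6.41% of tested genes. Without pair 2 it called 4 of 9, PKP2, PKP4, PPL and EVPL, all lower, against 13.4%. On group alone without miR-155OE replicate 2, PKP2 was called (log2 fold change −0.44, adjusted p = 0.0419), against 8.23%. That library lay closest to CTRL of the 4 miR-155OE libraries on the first principal component of all tested genes (−1.45, where CTRL spanned −29.0 to −8.93 and the other miR-155OE libraries 21.4 to 43.2). What sets it apart was not tested.

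**Figure D1:**
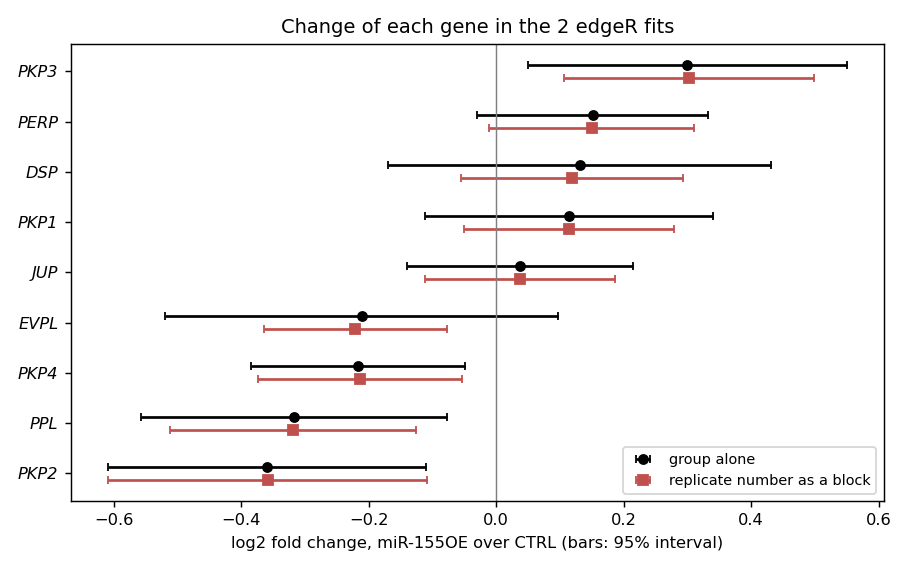
Log2 fold change of miR-155OE over CTRL for each of the 9 genes, from edgeR on group alone (black circles) and with the replicate number as a block (red squares). Bars are 95% intervals before adjustment for the number of genes tested. PKP3 has the highest value (0.30) and PKP2 the lowest (−0.36), and the intervals of DSP, JUP, PKP1 and PERP include 0 in both fits.

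Libraries held 33.4 to 52.7 M counted reads, of which the 9 members took 2.64 to 3.26%. PKP2, the scarcest, had 467 to 1186 reads per library, and PERP had 271755 to 435000. As markers of squamous epithelium, KRT5, KRT14, KRT13, KRT4, TP63, SFN, DSG3 and IVL were all at a mean of at least 1 CPM, summing to 21983 to 26795 CPM in CTRL and 20247 to 25507 CPM in miR-155OE. KRT4 and KRT13, the keratin pair typical of the esophageal lining, were at only 95.4 and 11.4 CPM in CTRL, far below KRT5 and KRT14, which carry most of that sum. In miR-155OE they were at 17.3 and 2.96 CPM. Both fell in the blocked fit but did not pass the main test on group alone, and other fits are given below. Immune markers summed to at most 0.383 CPM in any library. Of 3 endothelial markers only VWF exceeded 1 CPM, with sums of 1.51 to 2.19 CPM in CTRL and 1.29 to 2.35 CPM in miR-155OE. Of 6 fibroblast markers only COL1A1 exceeded 1 CPM. The fibroblast markers summed to 92.8 to 145 CPM in CTRL and 98.1 to 221 CPM in miR-155OE, with 4 of the 6 at 0 reads in every library. Of 5 muscle markers TNNT2 and MYL4 exceeded 1 CPM and 3 were at 0, with sums of 2.99 to 4.77 CPM in CTRL and 7.05 to 10.1 CPM in miR-155OE that did not overlap. Of 5 markers of simple epithelium, where PKP2 is typical, EPCAM, KRT8 and KRT18 exceeded 1 CPM, with sums of 46.9 to 56.3 CPM in CTRL and 35.8 to 48.9 CPM in miR-155OE. The part of these in the members' values was not tested. Fewer cells of a type and less RNA per cell cannot be told apart in such bulk samples.

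Levels between genes were compared as CPM per kb of the deposited gene model. PERP, a tetraspan membrane protein of desmosomes controlled by p63, was highest at 1900 ± 31.0 CPM per kb in CTRL. PKP1 (820.4 ± 74.6), DSP (774 ± 78.9) and JUP (694 ± 37.5) followed, with ranges over the CTRL libraries that overlapped between neighbours. PPL at 246 ± 25.8 and PKP3 at 191 ± 24.3 came next, and their CTRL ranges lay just apart (217 to 271 for PPL, 157 to 215 for PKP3). EVPL stood at 53.9 ± 7.20, PKP4 at 9.50 ± 0.880 and PKP2 at 2.77 ± 0.342 CPM per kb (SD, n = 4 each). The last 3 had CTRL ranges apart from each other and from all above. Divided by the longest annotated transcript instead, JUP came second (981 CPM per kb), ahead of PKP1 (935) and DSP (797), so the order among these 3 depended on the length used. On that length the CTRL ranges of PPL (267 to 334) and PKP3 (212 to 289.8) overlapped.

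DSP encodes desmoplakin, the obligate linker between plaque and keratin (ENSG00000096696; GRCh38, chromosome 6, 7541575 to 7586717, plus strand). In CTRL replicates 1 to 4 it had 8956, 7574, 7605 and 7109 CPM, and in miR-155OE 10656, 8061, 8554 and 6938 CPM. The highest and the lowest of all 8 values were both in miR-155OE, so the groups overlapped fully. The means were 7811 ± 796 and 8552 ± 1557 CPM (SD, n = 4 each), which gave a log2 fold change of 0.13 with a 95% interval of −0.17 to 0.43 (edgeR adjusted p = 0.662). Without miR-155OE replicate 1, its highest library, the log2 fold change was 0.01.

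JUP encodes plakoglobin, the armadillo protein shared by desmosomes and adherens junctions (ENSG00000173801; chromosome 17, 41754604 to 41786931, minus strand). It was the steadiest member, at 3677, 3329.9, 3254 and 3462 CPM in CTRL and 3670.1, 3302, 3576 and 3530.2 CPM in miR-155OE. All 8 values lay close together, higher in miR-155OE in 2 pairs and lower in 2. The log2 fold change was 0.04, with a 95% interval of −0.14 to 0.21 (edgeR adjusted p = 0.851), which spans a change of −9.29% to 16.0%.

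The plakophilins are armadillo proteins that cluster desmosomal cadherins and recruit desmoplakin. PKP1, the main one of stratified epithelia (ENSG00000081277; chromosome 1, 201283452 to 201332993, plus strand), had 5718, 5011, 4597 and 5055 CPM in CTRL and 6259, 5067, 5513 and 5218 CPM in miR-155OE. It was higher in 4 of 4 pairs, by 0.02 to 0.26 on the log2 scale, while the groups overlapped (log2 fold change 0.11, 95% interval −0.11 to 0.34, edgeR adjusted p = 0.598).

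PKP3, present through all living layers of squamous epithelium (ENSG00000184363; chromosome 11, 392614 to 404908, plus strand), had 814, 746, 596 and 742 CPM in CTRL and 1019.9, 848, 914 and 785 CPM in miR-155OE. Every miR-155OE library was above its CTRL partner, most of all in pair 3 (0.62 on the log2 scale) and least in pair 4 (0.08), but CTRL replicate 1 lay above miR-155OE replicate 4. Means were 724 ± 92.0 and 892 ± 100.4 CPM (SD, n = 4 each). PKP3 thus had a log2 fold change of 0.30 (SE 0.11, 95% interval 0.05 to 0.55, edgeR adjusted p = 0.175, and 0.0524 in the blocked fit).

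PKP2, the plakophilin of simple epithelia and heart (ENSG00000057294; chromosome 12, 32790745 to 32896840, minus strand), was scarce: 19.9, 18.6, 22.6 and 17.0 CPM in CTRL and 14.0, 17.7, 13.8 and 15.5 CPM in miR-155OE. The pairs differed widely, by −0.51, −0.07, −0.72 and −0.13 on the log2 scale, and miR-155OE replicate 2 lay above CTRL replicate 4. Its log2 fold change was −0.36 (SE 0.11, 95% interval −0.61 to −0.11, edgeR adjusted p = 0.111). PKP4, a p120-related plakophilin found in plaques and at cell contacts generally (ENSG00000144283; chromosome 2, 158456964 to 158682879, plus strand), had 85.8, 83.4, 102 and 90.4 CPM in CTRL and 79.0, 82.6, 76.2 and 73.7 CPM in miR-155OE. The groups did not overlap, though by less than 1 CPM between CTRL replicate 2 and miR-155OE replicate 2. Its log2 fold change was −0.22 (95% interval −0.38 to −0.05, edgeR adjusted p = 0.148).

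PERP (ENSG00000112378; chromosome 6, 138088505 to 138107511, minus strand) had 8042, 8035, 8305 and 8214 CPM in CTRL and 9211, 8385, 9174 and 9428 CPM in miR-155OE. All 4 miR-155OE values exceeded all 4 CTRL values, and CTRL was the tightest of any member, with an SD of 1.63% of its mean. The means were 8149 ± 133 and 9049 ± 457 CPM (SD, n = 4 each), which gave a log2 fold change of 0.15 with a 95% interval of −0.03 to 0.33 (edgeR adjusted p = 0.356).

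PPL encodes periplakin (ENSG00000118898; chromosome 16, 4882507 to 4960741, minus strand). It had 2083, 1669, 1773 and 2024 CPM in CTRL and 1478, 1632, 1288 and 1660.3 CPM in miR-155OE. The groups did not overlap, but CTRL replicate 2 and miR-155OE replicate 4 were less than 10 CPM apart. Means were 1887 ± 198 and 1514 ± 171 CPM (SD, n = 4 each), and the fold change was −0.32 on the log2 scale, with SE 0.11 and a 95% interval of −0.56 to −0.08 (edgeR adjusted p = 0.140). In the blocked fit the value was the same, its SE was 0.09 and PPL passed (adjusted p = 0.0403). Pairs 1 to 4 differed by −0.50, −0.03, −0.46 and −0.29 on the log2 scale.

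EVPL encodes envoplakin, the partner with which periplakin forms heterodimers (ENSG00000167880; chromosome 17, 76004502 to 76027452, minus strand). It had 469, 428, 347 and 375 CPM in CTRL and 393, 418, 284 and 304 CPM in miR-155OE. The groups overlapped, since libraries 1 and 2 were high and libraries 3 and 4 low in both, while each miR-155OE library lay below its partner, by −0.25, −0.03, −0.29 and −0.30. The log2 fold change was −0.21 (SE 0.14, edgeR adjusted p = 0.458) on group alone and −0.22 (SE 0.06, adjusted p = 0.0520) in the blocked fit.

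**Figure D2:**
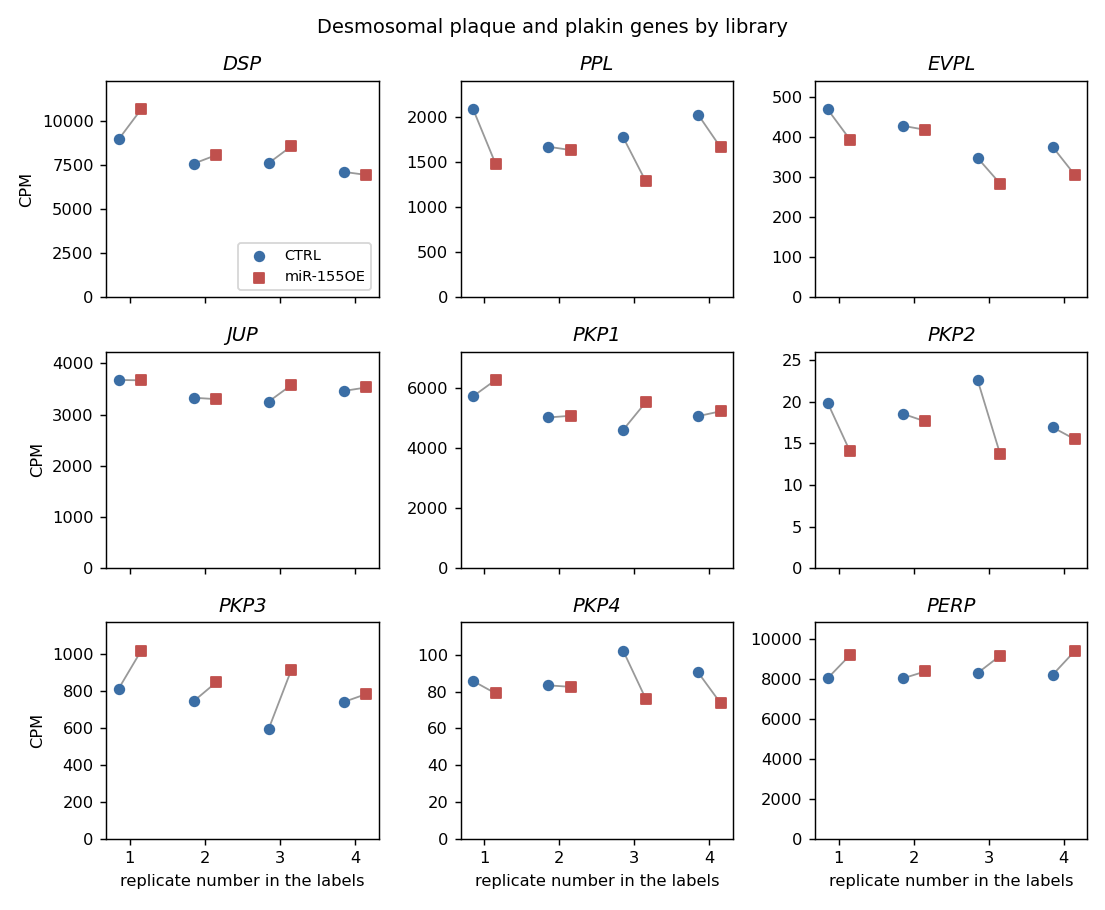
CPM of each of the 9 genes (y axis, from 0) in CTRL (blue circles) and miR-155OE (red squares) by the replicate number of the labels (x axis), with a line joining same-numbered libraries. PPL, EVPL, PKP2 and PKP4 slope down and PKP1, PKP3 and PERP slope up in all 4 pairs, and the slopes of pair 2 are among the flattest.

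Other annotated genes overlap PKP2, PKP4, PPL and EVPL. Whether reads were assigned by strand is not given in the sources used here, so reads in an overlap cannot be told apart. The overlapping genes had few reads. SEC14L5 at PPL had at most 27 in any library, TEN1-CDK3 and CDK3 at EVPL at most 10 and 7, PKP4-AS1 and AC005042.1 at PKP4 at most 9 and 2, and AC087588.2 and AC087588.1 at PKP2 at most 1 and 0. The authors' deposited table listed PPL at a log2 fold change of −0.31 (adjusted p = 0.0601), PKP2 at −0.36 (0.0662) and PKP3 at 0.30 (0.0968), and none of the 9 at or below an adjusted p of 0.05.

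Ratios of 2 members within a library do not depend on how libraries are scaled. Of 6 ratios compared, 2 had groups that did not overlap, and none passed after adjustment over the 6. Both of these contain PKP3, and the ratios among PKP1, PKP2 and PKP3 share genes, so they are not separate results. How often ratios of other gene pairs do not overlap was not examined. Reads of PKP1 per read of PKP3 were 7.02, 6.72, 7.72 and 6.82 in CTRL and 6.14, 5.97, 6.03 and 6.65 in miR-155OE. All miR-155OE values were below all CTRL values, with a difference in mean log2 ratio of −0.19 (exact permutation test, two-sided, p = 0.0286, adjusted p = 0.0857). Per kb, PKP1 made up 80.1 ± 0.779% of plakophilin RNA in CTRL and 78.3 ± 0.803% in miR-155OE, and PKP3 18.6 ± 0.963% and 20.8 ± 0.787% (SD, n = 4 each). PKP2 against PKP3 differed by −0.66 on the log2 scale (exact permutation test, two-sided, p = 0.0286, adjusted p = 0.0857), with CTRL replicate 3 far above the others of its group. Since 0.0286 is the smallest p that 4 against 4 libraries allow, no ratio could have passed alone after this adjustment.

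The other 4 ratios had overlapping groups, though PKP1 against PKP2 was higher and PPL against DSP lower in 4 of 4 pairs. PPL against DSP, the envelope plakin against the linker plakin, was 0.233, 0.220, 0.233 and 0.285 in CTRL and 0.139, 0.202, 0.151 and 0.239 in miR-155OE, a log2 difference of −0.44 (exact permutation test, two-sided, p = 0.114, adjusted p = 0.171). PKP1 against PKP2 differed by 0.47 (exact permutation test, p = 0.0857, adjusted p = 0.171). PPL against EVPL, the 2 heterodimer partners, differed by −0.10 (exact permutation test, p = 0.629, adjusted p = 0.629) and in 2 pairs each way. DSP against JUP differed by 0.08 (exact permutation test, p = 0.514, adjusted p = 0.617).

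**Figure D3:**
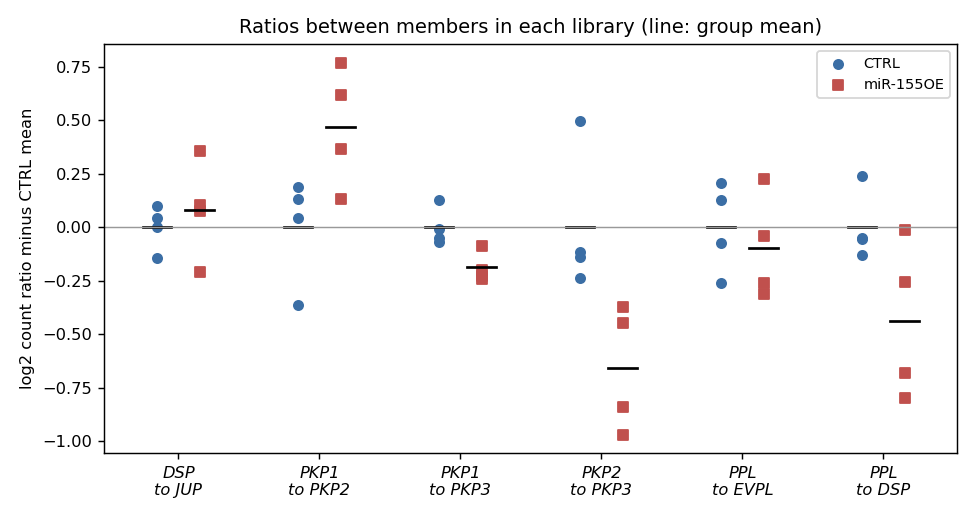
Log2 ratio of the counts of 2 members in each library, minus the CTRL mean of that ratio (y axis), for the 6 ratios compared (x axis), with CTRL as blue circles, miR-155OE as red squares and the group mean as a black line. The groups are apart for PKP1 to PKP3 (mean difference −0.19) and PKP2 to PKP3 (−0.66) and overlap for the other 4.

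The desmosomal cadherins are the membrane partners that the plaque binds. Of 6 tested desmosomal cadherins, 2 rose on group alone and 4 did not pass, with a list median of 0.08. Over all tested genes 3.22% were called on group alone and 12.6% with the block, the shares to set beside this and the later list counts. DSG1, the desmoglein of upper layers, rose by 1.64 on the log2 scale (SE 0.29, edgeR adjusted p = 0.0188), and DSC1, its desmocollin counterpart, by 3.84 (SE 0.63, adjusted p = 0.0136). The DSG1 call was lost when any 1 of CTRL replicates 1 to 3, or the first miR-155OE replicate, was left out (adjusted p from 0.0572 to 0.0702). That of DSC1 was lost without CTRL replicate 1 (0.0504) or 3 (0.0629). In the blocked fit DSG2 also fell (−0.32), a call lost without pair 1, 3 or 4 (edgeR adjusted p = 0.134, 0.0555 and 0.0697). Summed per kb, the desmosomal cadherins amounted to 1.12, 1.19, 1.11 and 1.02 times JUP in CTRL and 1.33, 1.26, 1.35 and 1.09 times JUP in miR-155OE. The groups overlapped, with miR-155OE replicate 4 inside the CTRL range and the other 3 above it. DSG1 made up 8.02 ± 2.38% of that sum in CTRL and 20.7 ± 7.33% in miR-155OE, and DSG3, the basal and lower-layer desmoglein, 43.1 ± 1.57% and 32.6 ± 6.78% (SD, n = 4 each). Both shares overlapped between the groups, through CTRL replicate 4 and miR-155OE replicate 2.

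**Figure D4:**
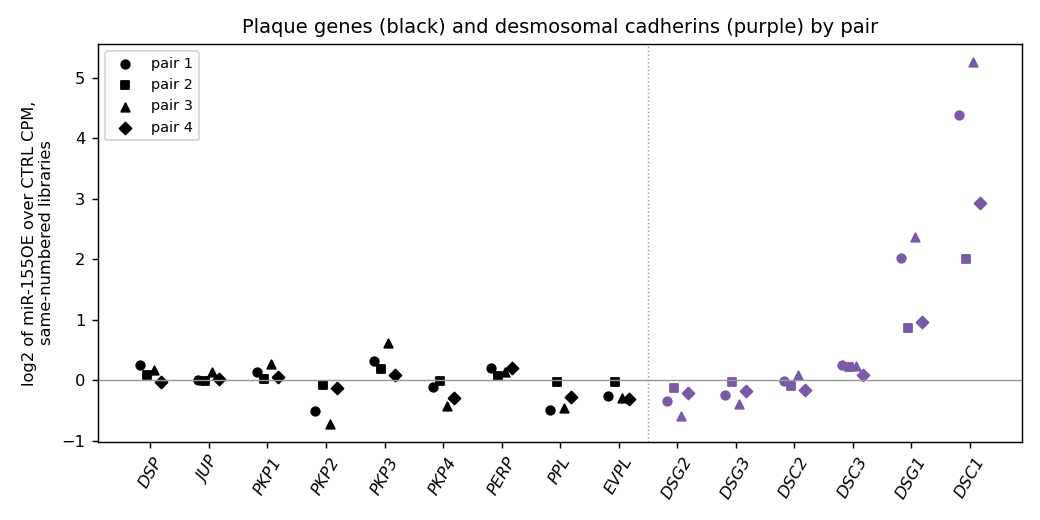
Log2 of the CPM in miR-155OE over CTRL for same-numbered libraries (y axis, 1 symbol per pair) for the 9 plaque genes (black) and the 6 tested desmosomal cadherins (purple). Plaque genes stay between −0.72 and 0.62. DSG1 and DSC1 are higher in all 4 pairs and least so in pair 2. DSC3, PKP1, PKP3 and PERP are also higher in all 4 pairs, by less. DSG2, DSG3, PKP2, PKP4, PPL and EVPL are lower in all 4. Of all tested genes, 35.6% keep 1 direction in 4 of 4 pairs.

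Relatives of the members by protein family did not pass on group alone. Of 5 tested plakin relatives (PLEC, DST, MACF1, EPPK1 and EVPLL) 0 passed, with a median of 0.26, and EPPK1, epiplakin, did not pass on group alone (0.77, edgeR adjusted p = 0.0522) but rose in the blocked fit (0.74, SE 0.19, adjusted p = 0.0323). It was also called by DESeq2 (adjusted p = 0.00135), with no filter on low counts (0.00362) and without miR-155OE replicate 2 (0.0218) or 4 (0.0337). It was not called with RLE scaling (0.0510), by limma-voom (0.0561) or without any 1 of the other libraries (0.0507 to 0.143). The blocked call was lost without pair 1 (0.156) or 3 (0.0610). PLEC and EPPK1 both lie on chromosome 8. Of 4 tested armadillo relatives 0 passed in either fit, with a median of −0.07. Among these, CTNNB1 (beta-catenin) had a log2 fold change of −0.09 and CTNND1 (p120 catenin) −0.08. Of 11 plaque partners and regulators 0 passed on group alone, with a median of 0.06. CDSN, the corneodesmosin that coats desmosomes in the cornifying layer, rose in the blocked fit (0.50, SE 0.08, edgeR adjusted p = 0.00508). KAZN, which binds periplakin, stood at 0.11 (adjusted p = 0.476).

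Keratins form the filaments that the plaque holds, and the RNA of some of them differed between the groups. Of 17 tested keratins 1 rose (KRT1, 2.73), 1 fell (KRT78, −0.68) and 15 did not pass on group alone, with a median of −0.18. KRT78 passed without miR-155OE replicate 2, but without any 1 of the other 7 libraries its adjusted p was 0.0618 to 0.127. In the blocked fit 2 rose, KRT1 (2.68) and KRT10 (1.06) of suprabasal epidermis, and 6 fell. The fallers were KRT4 (−3.00, edgeR adjusted p = 0.00696) and KRT13 (−2.27, adjusted p = 0.0185) of the esophageal lining, KRT19 (−0.78), KRT78 (−0.71), KRT15 (−0.46) and KRT18 (−0.28). The blocked calls of KRT1, KRT10 and KRT4 held whichever pair was left out. Without the block, KRT4 was called by limma-voom (adjusted p = 0.0240). With no filter on low counts edgeR called KRT4 (adjusted p = 0.00497) and KRT13 (0.0482), as it did without miR-155OE replicate 2 (0.00159 and 0.0140). DESeq2 called neither (adjusted p = 0.0601 and 0.236). Those of KRT19 and KRT78 were lost without pair 1 (adjusted p = 0.0726 and 0.106), and that of KRT13 without pair 1 (0.0634) or 4 (0.0711). KRT15 and KRT18 were lost without pair 1, 3 or 4 (0.0666 to 0.208). KRT6A and KRT17, the most abundant of the list, stood at −0.22 and −0.11 on group alone and did not pass in either fit. KRT5 and KRT14, the basal pair, had log2 fold changes of −0.18 and −0.05 and did not pass in either fit. Of 15 tested cornified envelope genes, ANXA1 (annexin A1) fell on group alone (−0.61, SE 0.13, edgeR adjusted p = 0.0392) and 14 did not pass, with a median of −0.12. ANXA1 also passed without CTRL replicate 1 or miR-155OE replicate 2, but without any 1 of the other 6 libraries its adjusted p was 0.0550 to 0.112. With the block 2 rose, CNFN (0.61) and TGM5 (0.42), and 4 fell, ANXA1, S100A10 (−0.55), S100A11 (−0.29) and SPRR3 (−1.92). The blocked call of TGM5 was lost without pair 4 (edgeR adjusted p = 0.110), and that of SPRR3 without pair 1 (0.148) or 4 (0.0638). S100A11 was lost without pair 1, 2 or 3 (0.0501 to 0.128), and CNFN, ANXA1 and S100A10 held whichever pair was left out. Without the block, DESeq2 called CNFN (adjusted p = 0.00814), S100A10 (0.0144) and S100A11 (0.0491). For CNFN and S100A10 limma-voom did not (adjusted p = 0.0783 and 0.0755). IVL and TGM1, the envelope scaffold and its crosslinking enzyme, stood at 0.05 and −0.07. Of 8 tested genes in the p63 and PERP list 0 passed on group alone, with a median of 0.01. TP63 stood at 0.00, and in the blocked fit the tetraspan relatives EMP2 rose (0.26) and EMP1 fell (−0.77). The call of EMP2 was lost without pair 1 (edgeR adjusted p = 0.0986), and that of EMP1 held whichever pair was left out.

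No member had an SD of log2 CPM of at least 0.3 over the 8 libraries, the level set for naming genes with a like pattern. At 0.2, chosen after the values were seen, DSP, PKP2, PKP3, PPL and EVPL qualified. Likeness was the root mean square difference of centred log2 CPM over the 8 libraries, among the 8395 genes with a mean of at least 10 CPM. Nearest to PPL were INHBA (0.07), BIN3 (0.07) and NSDHL (0.07), and nearest to EVPL were LTBP2 (0.04), STAT2 (0.04) and PDXK (0.04). PKP3 was most like OXLD1 (0.05), R3HDM4 (0.06) and FAM53B (0.07). For PKP2 they were ANXA5 (0.06), ABRACL (0.07) and MSH6 (0.08). Genes like DSP included MACF1 (0.07), itself a plakin, and VCPIP1 (0.08). The median difference over the genes with a mean of at least 10 CPM was 0.24 for DSP and 0.27 for EVPL, the lowest and highest of the 5.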

How the data were processed

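The deposited raw counts are whole numbers of reads per Ensembl gene, per the file headers. Per the submitters' processing notes, HISAT2 2.0.5, featureCounts 1.5.0-p3, DESeq2 and GRCh38 were used. The annotation release, strand setting and options are not given in the sources used here. A second deposited table holds the authors' normalised signal per library, their log2 fold change and their p-value with its adjusted p-value. Only its values for the 9 genes were used.

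Counts were fitted over all genes in R 4.3.3 with edgeR 4.0.16 (filterByExpr, TMM, quasi-likelihood F test on group alone). SEs and intervals restate that test. DESeq2 1.42.0, limma 3.58.1, RLE scaling, no filter, the replicate block and leaving out each library were alternatives. The levels per kb use the deposited gene model length. Positions of all 9 genes equal those of GENCODE 29. Ratios were tested with scipy 1.17.1.

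After subtracting the group mean of each gene, libraries 1 to 4 correlated with their same-numbered partner at 0.578, 0.497, 0.184 and 0.607 over 10267 genes, which are not independent replicates. All exceeding 0.1, the numbers were treated as pairs, although CTRL 3 correlated more with miR-155OE 4 (0.203) than with its own number. CTRL 4 with miR-155OE 3 (0.399), CTRL 1 with miR-155OE 2 (0.275) and CTRL 2 with miR-155OE 1 (0.267) also exceeded 0.1. That level therefore cannot tell pairs by number from a split of libraries 1 and 2 against 3 and 4. No library repeats another: any 2 of a group differed beyond sampling noise (chi-square over its degrees of freedom at least 16.0). The edgeR fit on group alone was tested on simulated unpaired counts with 200 genes changed. It called 87% of the changes of 1 log2 unit, 100% of those of 2, and 12 unchanged genes. Changes as small as those of the members, and paired libraries, were not simulated.

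The members, lists and tests were chosen with earlier results of these data known. All 9 members are named, with the list genes past the threshold in either fit, some of the most abundant ones, the genes overlapping a member and the most alike, of which 1 is not reported here. Other list genes given as examples (KAZN, KRT5, KRT14, IVL, TGM1, TP63) were picked for their known role after values were seen, and the blocked fits without a pair and the SD of 0.2 were added after seeing the data.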

Additional observations from a re-analysis of the deposited data

Results flagged for a closer look

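Of 30 sets of 4 libraries examined (9 members and 6 ratios in 2 groups), 1 held a library far from the other 3 by Dixon's test, where chance flags about 1 in 20. It was CTRL replicate 3 in the ratio of PKP2 to PKP3, at a log2 ratio of −4.72, where the other CTRL libraries lay between −5.45 and −5.33. That library had both the highest PKP2 (22.6 CPM) and the lowest PKP3 (596 CPM) of its group. Without it the difference between the groups was −0.49 in place of −0.66.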

How the results depend on the processing

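All 153 values of the 9 members under the 17 alternative fits kept their direction, and 147 stayed on the same side of the threshold. The other 6 became called: PPL with the replicate block (−0.32), PKP2 without miR-155OE replicate 2, and, in the blocked fit without pair 2, PKP2 (−0.45), PKP4 (−0.28), PPL (−0.41) and EVPL (−0.28). Without 1 library PKP2 ranged from −0.44 to −0.28, DSP from 0.01 to 0.22, JUP from 0.01 to 0.07, PKP1 from 0.05 to 0.18 and EVPL from −0.31 to −0.12. The members called numbered 1 with the block, 4 with the block without pair 2, and 0 to 1 without 1 library. RLE scaling and limma-voom changed no call of a member.

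Over all tested genes, 329 were called higher and 159 lower on group alone. These became 1125 and 783 with the block, 769 and 431 by DESeq2, and 619 and 308 with no filter on low counts. In blocked fits without pair 1, 2, 3 and 4 they were 436, 1141, 808 and 626 higher, and 187, 918, 581 and 345 lower. Without 1 library they ranged from 98 to 750 higher and from 25 to 524 lower. The lists, in the order given above, held 6, 5, 4, 11, 17, 15 and 8 tested genes. Of these listed genes, 5 were called on group alone, 21 with the block, 10 by DESeq2 and 11 with no filter. Without 1 library 1 to 15 were called, and in blocked fits without pair 1 to 4 there were 11, 22, 18 and 16. Of all tested genes, 3.22% were called on group alone, 12.6% with the block and 7.04% by DESeq2. In blocked fits without pair 1 to 4 these shares were 4.07%, 13.4%, 9.14% and 6.41%. On group alone without miR-155OE replicate 2 the share was 8.23%. For the fit with no filter, and for those without another library, only counts are given. The cause of the shifts between fits was not tested. Without 1 library the DSP to JUP difference ranged from −0.01 to 0.18, and the other 5 ratios kept their direction and moved by less than 1 SD. With 4 pairs the paired sign-flip test of a ratio cannot go below p = 0.125 (exact test), which 4 of the 6 ratios reached. These ratios share genes, and ratios of other gene pairs were not examined. Of single tested genes, 35.6% kept 1 direction in 4 of 4 pairs.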

Other observations

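DSP has a gene model of 10093 bases. The median centred log2 CPM of the 2059 genes of at least 8 kb stayed between −0.04 and 0.04 in the 8 libraries. DSP itself ranged from −0.23 in miR-155OE replicate 4, where the long genes stood at −0.04, to 0.39 in miR-155OE replicate 1, where they stood at 0.02. The median of the 687 genes under 2 kb lay between −0.07 and 0.07. PKP4, with a gene model of 9525 bases, ranged from −0.18 in miR-155OE replicate 4 to 0.29 in CTRL replicate 3. Whether gene length bears on the level of any member was not tested.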
